A study of Mus musculus with 8 samples.

Results

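Oxidative phosphorylation subunits are described here across 4 sorted groups of mouse liver cells. The members were every gene symbol of the count tables that begins with Ndufa, Ndufb, Ndufc, Ndufs, Ndufv, Uqcr, Cox4 to Cox8 or Atp5, together with Sdha, Sdhb, Sdhc and Sdhd, without pseudogene names. This gave 92 of 21968 named genes. They were sorted into 36 complex I subunits, 7 complex I assembly factors, 4 complex II, 8 complex III, 20 complex IV and 15 complex V genes. The pattern also took in Atp5s and Atp5sl, which are not core subunits.

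All mice carried the Lgr5-LacZ transgene on a mixed C57BL/6 and CBA background, and all had received a single intraperitoneal dose of carbon tetrachloride (CCl4, 1 µl per g body weight), a toxin of pericentral hepatocytes. Livers were taken 6 days later, and no uninjured group was analysed here. The mice were 10 to 12 weeks old by the sample labels, or 7 to 12 by the series text. The sorted groups are F4/80high cells with β-galactosidase activity (b-gal+), those without it (b-gal-), cells positive for EpCAM, and hepatocytes, with 2 libraries each, and every library pools cells of 2 mice. β-galactosidase activity was read by sorting on a fluorogenic substrate, and the series title ascribes it to the endogenous enzyme. F4/80 is a macrophage antigen and EpCAM an epithelial one, while hepatocytes were pelleted at low speed. The labels do not say whether the pools of different libraries came from separate mice, so p-values measure the spread between these libraries.

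Oxidative phosphorylation takes place in the inner mitochondrial membrane. Complex I (NADH dehydrogenase) and complex II (succinate dehydrogenase) pass electrons to coenzyme Q, complex III passes them on to cytochrome c, and complex IV (cytochrome c oxidase) to oxygen. The proton gradient built by complexes I, III and IV drives ATP synthesis by complex V. Hepatocytes are rich in mitochondria and depend on this pathway for gluconeogenesis, urea synthesis and fatty acid oxidation. Most subunits are encoded in the nucleus, as are all members here; the subunits encoded by mitochondrial DNA were not analysed here.

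The libraries held 16948568 to 24549242 reads on named genes. Levels are given as CPM, reads scaled to a common library size with TMM factors, and a differing gene is one with a Benjamini-Hochberg adjusted p under 0.05 in limma over 14404 genes tested. The 10 hepatocyte markers summed to 0.0803% to 2.23% of their mean hepatocyte level in the other 6 libraries, with the highest value in EpCAM-positive replicate 2. Ass1, at 0 in all 6, had 2.07 and 2.40 CPM in hepatocytes. The 10 Kupffer cell and macrophage markers summed to 36674 and 34805 CPM in b-gal+ cells, against 5193 and 2694 CPM in b-gal- cells, and none was at 0. The 10 sinusoidal endothelial markers ran the other way, with 3838 and 2863 CPM in b-gal+ cells, against 19040 and 22493 CPM in b-gal- cells. EpCAM-positive cells held cholangiocyte markers at 2062 and 6607 CPM, of which Spp1 made up 1837 and 5685 CPM; Spp1 also reached 655 CPM in b-gal+ replicate 1 and 1263 CPM in b-gal- replicate 1. Without Spp1 the other 9 summed to 225 and 922 CPM in EpCAM-positive cells and to at most 6.65 CPM in the F4/80high libraries. EpCAM-positive cells also held endothelial markers at 8048 and 6884 CPM and B and plasma cell markers at 4339 and 1675 CPM, of which Jchain alone made up 3782 and 1524 CPM. The part of this make-up in the results was not tested, and in bulk samples fewer cells of a type cannot be told apart from less RNA per cell.

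The promoters of a few members are shown to let the sequence be read beside the levels below. The letters are from RefSeq on GRCm38.p6, each a window of 300 bases around the annotated start, 5′ to 3′ on the gene's strand, and 76 of the 92 members matched an entry. Capitals mark an exact match, on either strand, to a word bound by a regulator of respiratory genes. NRF1 (nuclear respiratory factor 1) was searched as the palindrome capitalised in Uqcrc1 and Cox6a1, GABPA, a subunit of nuclear respiratory factor 2, as CCGGAAGT and YY1 as AAGATGGCG. Uqcrc1 (chr9:108936398-108936697, plus strand) and Cox6a1 (chr5:115348909-115349208, minus strand) hold the NRF1 word. Uqcrh (chr4:116075021-116075320, minus strand) holds the GABPA word in reverse complement. Ndufs7 (chr10:80249199-80249498, plus strand) holds the YY1 word. Cox5a (chr9:57520982-57521281, plus strand), the member whose level departed most from the others, holds none of them, like most of the matched members. A link between these words and the levels was not tested.
Uqcrc1: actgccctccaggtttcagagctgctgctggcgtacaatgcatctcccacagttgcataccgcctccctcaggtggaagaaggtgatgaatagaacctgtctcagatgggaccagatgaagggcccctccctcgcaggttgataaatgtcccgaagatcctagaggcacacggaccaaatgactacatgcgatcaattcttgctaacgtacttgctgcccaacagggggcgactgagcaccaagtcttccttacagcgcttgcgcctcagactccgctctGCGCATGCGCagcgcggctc
Cox6a1: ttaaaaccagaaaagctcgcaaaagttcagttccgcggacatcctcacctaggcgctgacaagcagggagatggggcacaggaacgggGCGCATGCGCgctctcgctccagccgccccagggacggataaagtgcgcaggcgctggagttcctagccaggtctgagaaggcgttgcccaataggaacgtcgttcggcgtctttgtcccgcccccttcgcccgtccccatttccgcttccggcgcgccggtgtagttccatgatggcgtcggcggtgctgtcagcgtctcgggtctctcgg
Uqcrh: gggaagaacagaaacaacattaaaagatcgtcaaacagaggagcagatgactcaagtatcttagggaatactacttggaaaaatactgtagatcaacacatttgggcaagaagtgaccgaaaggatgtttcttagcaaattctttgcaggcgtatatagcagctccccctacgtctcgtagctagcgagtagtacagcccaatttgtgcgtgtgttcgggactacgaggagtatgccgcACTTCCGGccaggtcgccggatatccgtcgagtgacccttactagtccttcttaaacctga
Ndufs7: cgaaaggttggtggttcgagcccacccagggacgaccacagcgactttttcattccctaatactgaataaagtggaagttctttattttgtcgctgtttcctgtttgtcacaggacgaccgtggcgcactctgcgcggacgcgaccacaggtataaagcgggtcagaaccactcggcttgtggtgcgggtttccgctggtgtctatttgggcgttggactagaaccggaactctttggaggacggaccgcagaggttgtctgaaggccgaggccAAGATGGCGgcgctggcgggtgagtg
Cox5a: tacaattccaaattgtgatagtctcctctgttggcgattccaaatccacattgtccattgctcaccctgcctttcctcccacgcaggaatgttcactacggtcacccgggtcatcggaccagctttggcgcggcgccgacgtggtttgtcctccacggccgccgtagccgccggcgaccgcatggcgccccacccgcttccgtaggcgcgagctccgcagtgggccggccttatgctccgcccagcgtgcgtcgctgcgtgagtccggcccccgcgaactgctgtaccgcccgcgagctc

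Across the matched members the NRF1 word stood in 7 of 76 promoters (9.21%), against 1.47% of 17492 gene promoters of the same length. The YY1 word stood in 8 members (10.5%), against 2.14% of all promoters. The GABPA word stood in 5 members (6.58%), against 5.69% of all promoters. No member held more than 1 of the 3 words, and 20 held any. These are matches of letters in a short window, and binding was not measured.

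The share of reads on the members was highest in hepatocytes. The 92 members took 0.533% and 0.446% of the reads in b-gal+ cells, 0.448% and 0.400% for b-gal- cells, 0.547% and 0.514% for EpCAM-positive cells, and 1.13% and 0.953% for hepatocytes, before any scaling. Both hepatocyte libraries lay above the other 6. The b-gal+ libraries overlapped both other groups in this share, while both EpCAM-positive libraries lay above both b-gal- libraries. After TMM scaling the members summed to 5006 and 4135 CPM in b-gal+ cells, 3796 and 3315 CPM in b-gal- cells, 3857 and 3462 CPM in EpCAM-positive cells, and 20555 and 18086 CPM in hepatocytes. On that scale the b-gal+ sums lay above the b-gal- and EpCAM-positive ones, which overlapped. Complex V, the ATP synthase, was the largest part of the sum in each library, at 0.126% to 0.191% of the reads outside hepatocytes and 0.429% and 0.355% for hepatocytes.

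**Figure D1:**
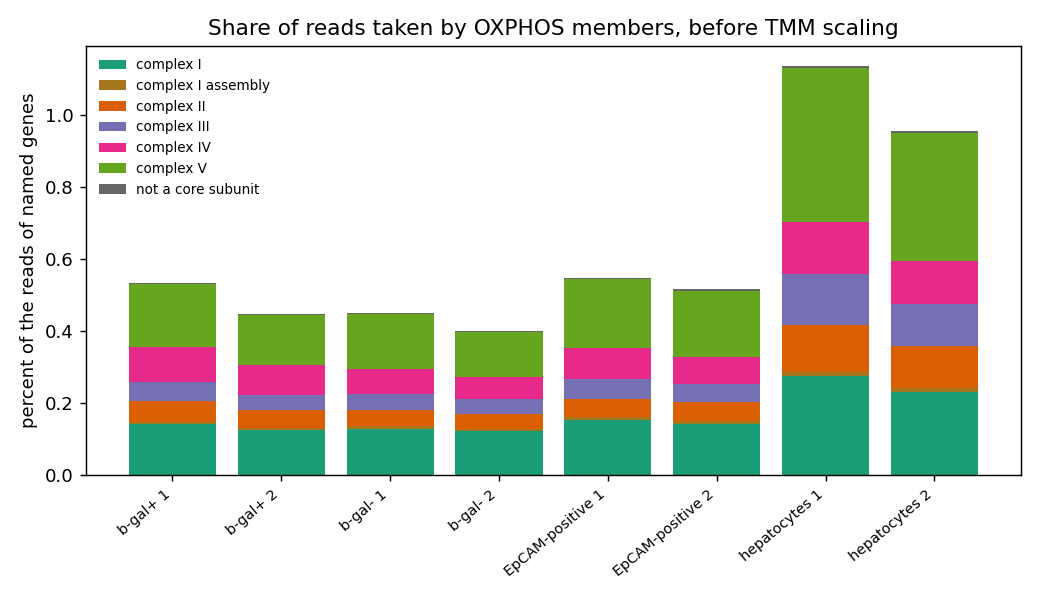
Stacked bars give the percent of the reads of named genes that fell on the members in each of the 8 libraries, before TMM scaling, coloured by complex. Hepatocytes 1 and 2 reach 1.13% and 0.953%, and the other 6 libraries lie between 0.400% and 0.547%.

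Of the 92 members 87 passed the filter on low counts and were tested. Each of these had at least 10 reads in 2 or more libraries outside hepatocytes, so none was tested through the hepatocyte libraries alone. The 5 that were not tested are Ndufs5, Cox4i2, Cox7b2, Cox8b and Cox8c. On the TMM scale 81 of the 87 (93.1%) exceeded the other 6 libraries in both hepatocyte libraries, against 29.4% of all genes tested. On that scale the exceptions were Cox7a1, Cox6b2, Cox6a2, Cox7a2l, Atp5g2 and Atp5l. This count was not taken on other scales. With TMM 4, 3 and 4 members had a positive log2 difference against hepatocytes in b-gal+, b-gal- and EpCAM-positive cells. With library totals alone, without TMM factors, these were 9, 9 and 13.

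**Figure D2:**
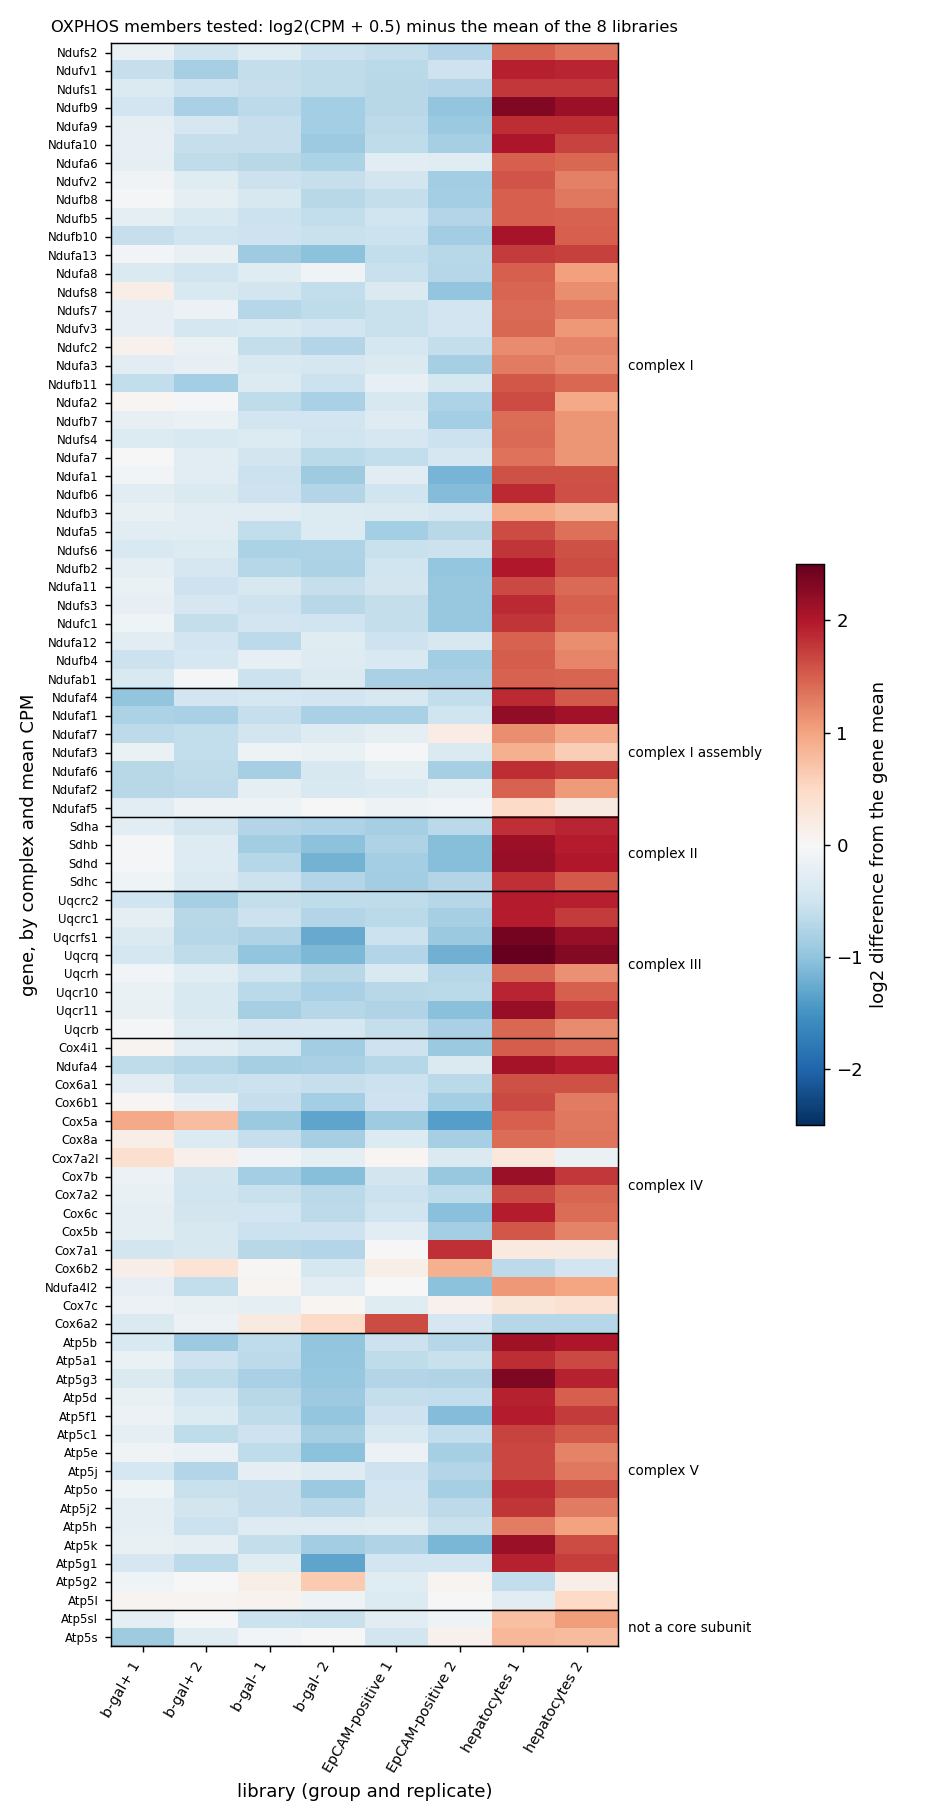
Each row is a tested member and each column a library; colour gives log2(CPM + 0.5) minus the mean of that gene over the 8 libraries, with rows grouped by complex. The 2 hepatocyte columns are the highest of their row in 81 of 87 rows, and Cox5a is the row in which the b-gal+ columns stand clearly above the b-gal- and EpCAM-positive ones.

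Against hepatocytes nearly every member fell in each of the other groups. In b-gal+ cells 78 of 87 members were lower (89.7%, against 29.6% of all genes) and 0 were higher (against 29.5%), with a median log2 difference of -1.87 for the members and 0.10 for all genes. In b-gal- cells 78 were lower (89.7%, against 29.7%) and 0 higher (against 33.5%), with medians of -2.14 and 0.17. In EpCAM-positive cells 79 were lower (90.8%, against 29.1%) and 1 was higher (against 33.5%), with medians of -2.16 and 0.14. Where limma called 0 members higher, 0 also passed an unadjusted p of 0.05. edgeR called 0 higher for either F4/80high group (against 29.6% of all genes for b-gal+ and 33.4% for b-gal- cells), and DESeq2 called 0 for b-gal+ cells (against 31.3%) and 1, Cox6a2, for b-gal- cells (against 33.2%). The 3 comparisons share the hepatocyte libraries and are not independent of each other.

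The size of this difference depends on the scaling, since hepatocyte libraries had TMM factors of 0.552 and 0.527 and the other 6 had 1.06 to 1.49. With library totals alone the median of all genes moved to 0.82 in b-gal+ cells, 1.08 in b-gal- cells and 1.37 for EpCAM-positive cells against hepatocytes. The median of the members was then -0.91 in b-gal+ cells, -0.999 in b-gal- cells and -0.73 for EpCAM-positive cells, and 65, 68 and 54 members were called lower (against 16.4%, 15.5% and 11.5% of all genes) and 2, 3 and 4 higher (against 50.9%, 57.9% and 67.1%) in these groups. With the scaling of the deposited values 59, 66 and 59 were called lower (against 16.0%, 15.1% and 11.8%). Relative to all genes, the members' median was -1.97, -2.31 and -2.30 with TMM, and -1.73, -2.08 and -2.10 with library totals. The calls over all genes also tilted: for b-gal+ cells against hepatocytes they were 4254 higher and 4268 lower with TMM, and 7336 higher and 2360 lower with library totals. For b-gal- cells the same counts were 4826 and 4276, then 8341 and 2239, and for EpCAM-positive cells 4822 and 4187, then 9665 and 1651. Complexes I to V each kept a negative median against hepatocytes under each of the 4 scalings tried.

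**Figure D3:**
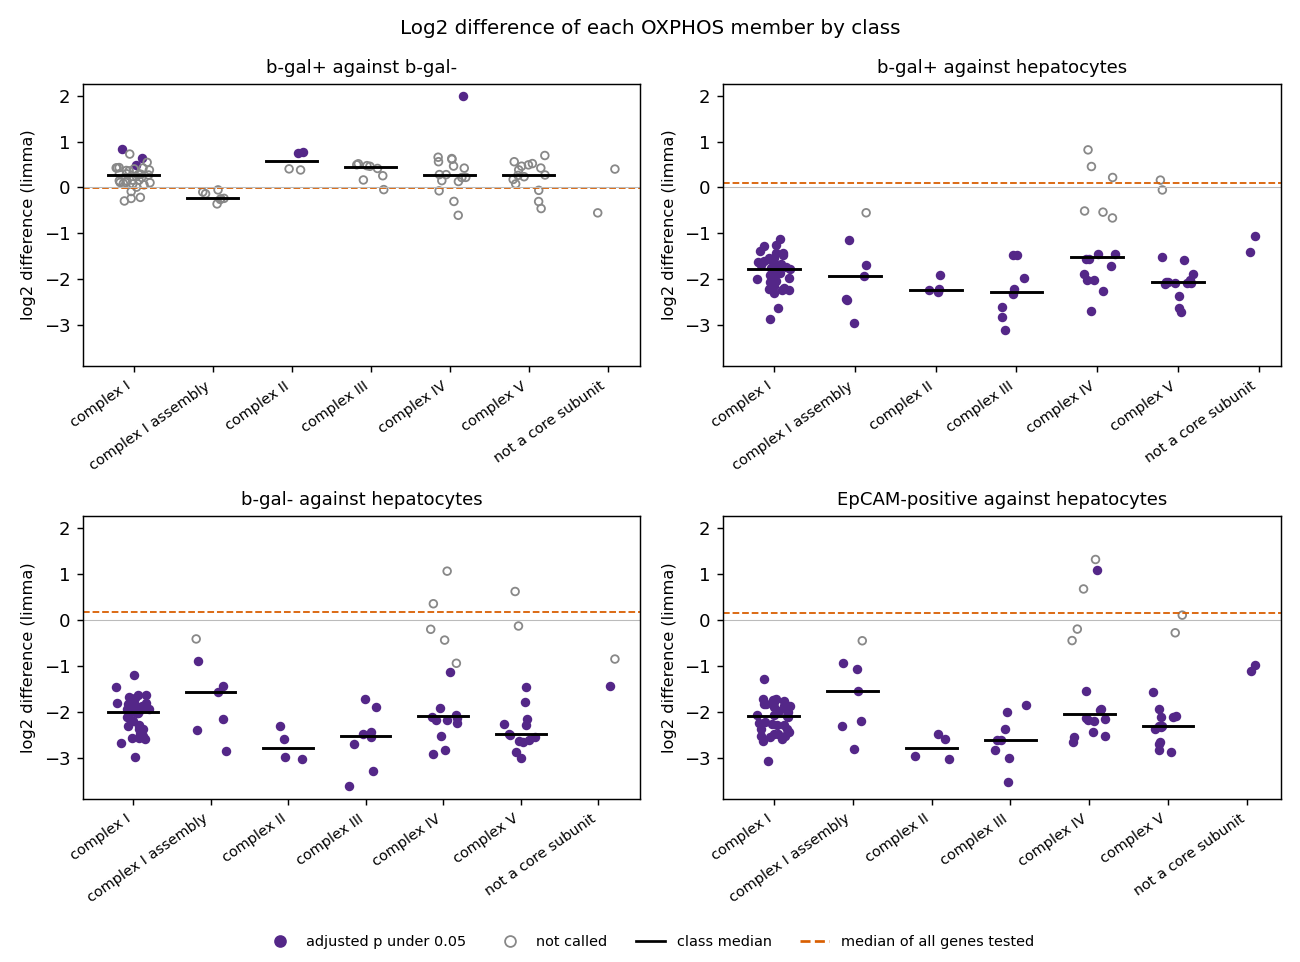
Each point is a tested member, with its log2 difference on the log2(CPM + 0.5) scale on the vertical axis and its class on the horizontal axis, in 1 panel per comparison; filled points have an adjusted p under 0.05 in limma, black bars are class medians and the dashed line is the median of all genes. Against hepatocytes nearly all points are filled and lie below -1, whereas between b-gal+ and b-gal- cells 6 of 87 are filled, all above 0.

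Between the 2 F4/80high groups the members differed far less. Of the 87 tested, 6 were higher in b-gal+ than in b-gal- cells (6.90%, against 10.3% of all genes) and 0 were lower (against 13.0%). The 6 were Cox5a of complex IV, Ndufa13, Ndufs7 and Ndufc2 of complex I, and Sdhb and Sdhd of complex II. At an unadjusted p of 0.05, 17 were higher and 0 lower in limma. The share of all genes at that cut was not counted, so the 17 cannot be set against it. By adjusted p, edgeR and DESeq2 also called 0 lower (against 12.1% and 14.3% of all genes). edgeR called 5 higher (5.75%, against 8.60% of all genes) and DESeq2 16 (18.4%, against 16.0%), so whether the members' share lies below or above that of all genes depends on the test. With TMM the median log2 difference was 0.27 for the members and -0.02 for all genes, with 68 members positive and 19 negative. With library totals alone the medians were 0.13 and -0.15, with 57 members positive and 30 negative. On the TMM scale both b-gal+ libraries lay above both b-gal- libraries for 52 of 87 members (59.8%, against 33.8% of all genes). They lay below them for 9 (10.3%, against 35.2%). These 2 counts were not taken on other scales. Beside this difference, 8 of 10 Kupffer cell and macrophage markers were called higher and 9 of 10 endothelial markers lower in b-gal+ cells; their part in it was not tested. Only Cox5a was called without each of the 8 libraries in turn: without b-gal- replicate 2 it was the sole call, and without b-gal+ replicate 1 there were 2.

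In complex I the 35 tested subunits all fell against hepatocytes in b-gal+, b-gal- and EpCAM-positive cells (against 29.6%, 29.7% and 29.1% of all genes). Their medians were -1.77, -2.01 and -2.09. With library totals alone 29, 31 and 21 of them were called lower (against 16.4%, 15.5% and 11.5%). The 7 core subunits, which carry the redox centres and are conserved from bacteria, had medians of -1.74, -2.03 and -2.08, and the 28 tested accessory subunits -1.78, -2.001 and -2.11, so these classes lay close together. Ndufb9, an accessory subunit of the membrane arm, stood at 50.2 and 39.98 CPM in b-gal+ cells, 44.7 and 38.9 CPM in b-gal- cells, 43.0 and 35.2 CPM in EpCAM-positive cells, and 352 and 313 CPM in hepatocytes. Hepatocytes stood far above the other libraries, which overlapped. It had the lowest log2 difference of complex I in all 3 comparisons, -2.88 ± 0.18 in b-gal+ cells (SE, adjusted p = 2.34e-05, limma), -2.98 ± 0.18 in b-gal- cells and -3.08 ± 0.18 for EpCAM-positive cells, and per length it was also the highest complex I subunit in hepatocytes, at a mean of 473 RPKM, against 64.0 in b-gal+ cells, 59.3 in b-gal- cells and 55.5 for EpCAM-positive cells. Of its 50-base words 23.4% also occur in another annotated gene.

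The smallest fall in complex I was that of Ndufb3, another accessory subunit. Its levels were 22.9 and 21.6 CPM in b-gal+ cells, 21.8 and 20.5 CPM in b-gal- cells, 20.3 and 19.4 CPM in EpCAM-positive cells, and 51.2 and 47.5 CPM in hepatocytes. That is a log2 difference of -1.13 ± 0.15 in b-gal+ cells (SE, adjusted p = 0.000584, limma), -1.21 ± 0.15 in b-gal- cells and -1.29 ± 0.15 for EpCAM-positive cells against hepatocytes, and the last of these turned positive with library totals alone (0.11) and with the deposited scaling (0.06).

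Among the 35 tested complex I subunits 3 were higher in b-gal+ than in b-gal- cells (8.57%, against 10.3% of all genes). Ndufa13 (chr8:69894180-69902558, minus strand, GRCm38), an accessory subunit also known as GRIM-19, stood at 45.7 and 42.2 CPM in b-gal+ cells, against 25.5 and 23.4 CPM in b-gal- cells, with EpCAM-positive cells at 31.3 and 29.3 CPM and hepatocytes at 162 and 158 CPM. The b-gal+ libraries did not overlap those of any other group. The difference was 1.78-fold, or 0.83 ± 0.13 on the log2 scale (SE, adjusted p = 0.0053, limma), and 0.77 with adjusted p = 0.0603 without b-gal- replicate 2. Ndufa13 shares 375 exon bases with Tssk6 on the opposite strand, and 28.5% of its 50-base words occur in 2 other genes, so reads of these genes may be mixed.

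Ndufs7 (chr10:80249121-80256794, plus strand), a core iron-sulphur subunit, stood at 38.4 and 39.8 CPM in b-gal+ cells, against 26.9 and 28.5 CPM in b-gal- cells. It was 1.40-fold higher (log2 0.49 ± 0.13, adjusted p = 0.0349, limma); the adjusted p lay between 0.13 and 0.179 when a b-gal+ or b-gal- library was left out. Ndufc2 (chr7:97400003-97407802, plus strand), an accessory subunit named here after its values were seen, stood at 46.8 and 38.4 CPM in b-gal+ cells, against 28.5 and 25.9 CPM in b-gal- cells, a 1.55-fold difference (log2 0.63 ± 0.15, adjusted p = 0.0275). Neither shares a 50-base word with another gene. With library totals alone the calls of Ndufs7 and Ndufc2 were lost.

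The 7 complex I assembly factors, which build the complex but are not part of it, did not share the direction of the subunits between the F4/80high groups. All 7 had a negative log2 difference in b-gal+ against b-gal- cells, with a median of -0.24, but none was called, and with median-of-ratios scaling that of Ndufaf6 was positive (0.03). Against hepatocytes 6 of 7 fell in b-gal+, b-gal- and EpCAM-positive cells (against 29.6%, 29.7% and 29.1% of all genes), with Ndufaf5 the exception. With library totals alone 5 fell in b-gal+ cells, 3 for b-gal- cells and 3 for EpCAM-positive cells (against 16.4%, 15.5% and 11.5%). Then 1 was called higher for each of the last 2 groups (against 57.9% and 67.1%). Ndufaf5 then turned positive in all 3 (0.37, 0.65 and 0.88), Ndufaf3 in b-gal- and EpCAM-positive cells (0.19 and 0.42) and Ndufaf7 in EpCAM-positive cells (0.33). Ndufaf1, a factor of an early membrane-arm intermediate, stood at 8.10 and 7.92 CPM in b-gal+ cells, 9.37 and 7.93 CPM in b-gal- cells, 7.90 and 9.98 CPM in EpCAM-positive cells, and 68.1 and 62.8 CPM in hepatocytes. It was 7.74-fold lower in b-gal+ cells, 7.22-fold lower in b-gal- cells and 7.02-fold lower for EpCAM-positive cells than in hepatocytes (adjusted p = 3.76e-05, 3.94e-05 and 5.62e-05, limma). Ndufaf5 stood at 5.95 and 6.68 CPM in b-gal+ cells, 6.60 and 7.39 CPM in b-gal- cells, 6.65 and 6.92 CPM in EpCAM-positive cells, and 10.4 and 8.62 CPM in hepatocytes, with adjusted p between 0.0855 and 0.169.

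Complex II is the only respiratory complex with all subunits nuclear, and it also works in the tricarboxylic acid cycle. Its 4 genes fell against hepatocytes in b-gal+, b-gal- and EpCAM-positive cells (against 29.6%, 29.7% and 29.1% of all genes), and these calls were kept under each scaling. The medians were -2.23 in b-gal+ cells, -2.80 in b-gal- cells and -2.79 for EpCAM-positive cells. Sdha (chr13:74322254-74350280, minus strand), the flavoprotein, stood at 258 and 228 CPM in b-gal+ cells, 189 and 183 CPM in b-gal- cells, 176 and 196 CPM in EpCAM-positive cells, and 1102 and 1166 CPM in hepatocytes. Sdhb (chr4:140961203-140979193, plus strand), the iron-sulphur subunit, stood at 95.9 and 79.6 CPM in b-gal+ cells, 54.0 and 48.8 CPM in b-gal- cells, 57.9 and 47.6 CPM in EpCAM-positive cells, and 439 and 389 CPM in hepatocytes. In both, on the TMM scale, hepatocytes were highest, b-gal+ cells next, and b-gal- and EpCAM-positive cells overlapped. Before scaling the 4 genes took 0.0577% and 0.0499% of the reads in b-gal+ cells and 0.0438% and 0.0405% in b-gal- cells. EpCAM-positive cells, at 0.0486% and 0.0522%, then overlapped b-gal+ cells and lay above b-gal- cells.

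On the TMM scale the membrane anchors of complex II were also highest in hepatocytes and next in b-gal+ cells. On that scale b-gal- cells lay above EpCAM-positive cells for Sdhc and overlapped them for Sdhd. Sdhc (chr1:171127165-171150603, minus strand) stood at 96.8 and 81.2 CPM in b-gal+ cells, 71.3 and 62.7 CPM in b-gal- cells, 57.1 and 62.4 CPM in EpCAM-positive cells, and 370.0 and 302 CPM in hepatocytes. Sdhd (chr9:50596357-50603812, minus strand) stood at 90.9 and 74.7 CPM in b-gal+ cells, 56.9 and 41.2 CPM in b-gal- cells, 51.9 and 44.8 CPM in EpCAM-positive cells, and 425 and 375 CPM in hepatocytes. For all 4 genes both b-gal+ libraries lay above both b-gal- libraries on the TMM scale (against 33.8% of all genes), and the call was made for Sdhb and Sdhd.

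Between b-gal+ and b-gal- cells Sdhb was 1.70-fold higher (log2 0.76 ± 0.17, adjusted p = 0.0189, limma) and Sdhd 1.69-fold higher (log2 0.76 ± 0.20, adjusted p = 0.0354), whereas Sdha (log2 0.38 ± 0.16, adjusted p = 0.151) and Sdhc (log2 0.40 ± 0.17, adjusted p = 0.137) did not pass. The call of Sdhb was lost without either b-gal- library (adjusted p of 0.0654 and 0.145) and without b-gal+ replicate 1 (0.119). Sdhd was not called by edgeR (adjusted p = 0.0557), nor without b-gal- replicate 2 (0.239), either b-gal+ library (0.19 and 0.0766) or either hepatocyte library (0.055 and 0.0556), nor with library totals alone (0.0661) or the deposited scaling (0.0863), under which Sdhb was still called. Against hepatocytes Sdhb was 4.71-fold lower in b-gal+ cells, 7.98-fold lower in b-gal- cells and 7.81-fold lower for EpCAM-positive cells.

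All 8 complex III genes fell against hepatocytes in b-gal+, b-gal- and EpCAM-positive cells (against 29.6%, 29.7% and 29.1% of all genes). The medians were -2.27 in b-gal+ cells, -2.52 in b-gal- cells and -2.62 for EpCAM-positive cells. With the deposited scaling 6, 8 and 8 were called lower (against 16.0%, 15.1% and 11.8%). Uqcrq (chr11:53427922-53430831, minus strand), a small subunit near the cytochrome b core, had the lowest log2 difference of all members in each of these comparisons. It stood at 46.3 and 40.5 CPM in b-gal+ cells, 31.8 and 28.6 CPM in b-gal- cells, 38.0 and 27.1 CPM in EpCAM-positive cells, and 452 and 313 CPM in hepatocytes. It was 8.59-fold lower in b-gal+ cells (adjusted p = 4.95e-05, limma), 12.3-fold lower in b-gal- cells (2.59e-05) and 11.5-fold lower in EpCAM-positive cells (3.87e-05). No 50-base word of Uqcrq occurs in another gene.

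At the other end of complex III stood Uqcrb and Uqcrh. Of the 50-base words of Uqcrb 43.4% occur in 5 other genes, so its level is uncertain. Uqcrb stood at 26.1 and 21.8 CPM in b-gal+ cells, 19.97 and 19.9 CPM in b-gal- cells, 17.6 and 15.1 CPM in EpCAM-positive cells, and 73.5 and 62.0 CPM in hepatocytes; it was 2.79-fold lower in b-gal+ and 3.33-fold lower in b-gal- cells (adjusted p = 0.000391 and 0.000176). Uqcrh, the hinge protein that contacts cytochrome c1, stood at 62.8 and 54.4 CPM in b-gal+ cells, 46.9 and 40.8 CPM in b-gal- cells, 50.8 and 40.2 CPM in EpCAM-positive cells, and 183 and 147 CPM in hepatocytes. It was 3.60-fold lower in EpCAM-positive cells than in hepatocytes (adjusted p = 0.000201). Per length the highest complex III subunit was Uqcrh outside hepatocytes, at a mean of 107 RPKM in b-gal+ cells, 80.2 in b-gal- cells and 83.2 for EpCAM-positive cells, and Uqcrc1, a core protein, in hepatocytes, at 325 RPKM. Between b-gal+ and b-gal- cells no complex III gene was called. On the TMM scale 6 of 8 had both b-gal+ libraries above both b-gal- libraries, a pattern seen in 33.8% of all genes.

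Complex IV was the most varied. Of its 16 tested genes 10 fell in b-gal+ cells, 11 in b-gal- cells and 11 for EpCAM-positive cells against hepatocytes (against 29.6%, 29.7% and 29.1% of all genes). With the deposited scaling 6, 10 and 8 were called lower (against 16.0%, 15.1% and 11.8%). Under that scaling 2, 1 and 3 were called higher (against 52.5%, 59.5% and 66.1%). Cox4i1, the general isoform of a large regulatory subunit, had the highest level per length, at a mean of 326 RPKM in b-gal+ cells, 222 in b-gal- cells, 212 in EpCAM-positive cells and 958 in hepatocytes. It stood at 278 and 220.3 CPM in b-gal+ cells, 194 and 145 CPM in b-gal- cells, 185 and 139 CPM in EpCAM-positive cells, and 755 and 711 CPM in hepatocytes. The lowest log2 differences were those of Ndufa4, a subunit first assigned to complex I, in b-gal+ cells (-2.69 ± 0.15, adjusted p = 1.76e-05, limma) and of Cox7b in b-gal- cells (-2.92 ± 0.23, adjusted p = 5.74e-05) and EpCAM-positive cells (-2.67 ± 0.23, adjusted p = 0.000111).

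Cox5a (chr9:57521274-57532426, plus strand), the matrix-side subunit that binds thyroid hormone metabolites, departed from the other members. It stood at 155 and 138 CPM in b-gal+ cells, 42.1 and 31.8 CPM in b-gal- cells, 42.9 and 30.8 CPM in EpCAM-positive cells, and 226 and 199.99 CPM in hepatocytes. The b-gal+ libraries stood far above the b-gal- and EpCAM-positive ones and below hepatocytes. The level was 3.95-fold higher in b-gal+ than in b-gal- cells (log2 1.98 ± 0.21, adjusted p = 0.0016, limma), with 1.78 to 2.18 on the log2 scale and adjusted p of 0.0016 to 0.017 when each library was left out in turn. Against hepatocytes it was 1.45-fold lower in b-gal+ cells, which did not pass (log2 -0.54 ± 0.21, adjusted p = 0.0663; 0.45 and 0.51 with library totals and the deposited scaling). In b-gal- and EpCAM-positive cells it was 5.74-fold and 5.78-fold lower than in hepatocytes (adjusted p = 7.41e-05 and 9.63e-05).

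Ratios of reads within a library do not depend on scaling, and they show the same departure. Cox5a reads divided by Cox4i1 reads gave 0.558 and 0.625 for b-gal+ cells, 0.218 and 0.219 for b-gal- cells, 0.232 and 0.221 for EpCAM-positive cells, and 0.299 and 0.281 for hepatocytes. Cox5b, its neighbour in the assembled enzyme, stood at 13.6 and 11.9 CPM in b-gal+ cells and 10.8 and 11.008 CPM in b-gal- cells, with a log2 difference of 0.22 ± 0.25 (adjusted p = 0.605, limma). The level of Cox5b is uncertain, since 21.8% of its 50-base words occur in 1 other gene. Of the 50-base words of Cox5a 32.05% occur in 3 other annotated genes, and it shares 269 exon bases with Gm26631 on the opposite strand. Whether reads of those genes took part in the difference was not tested.

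**Figure D4:**
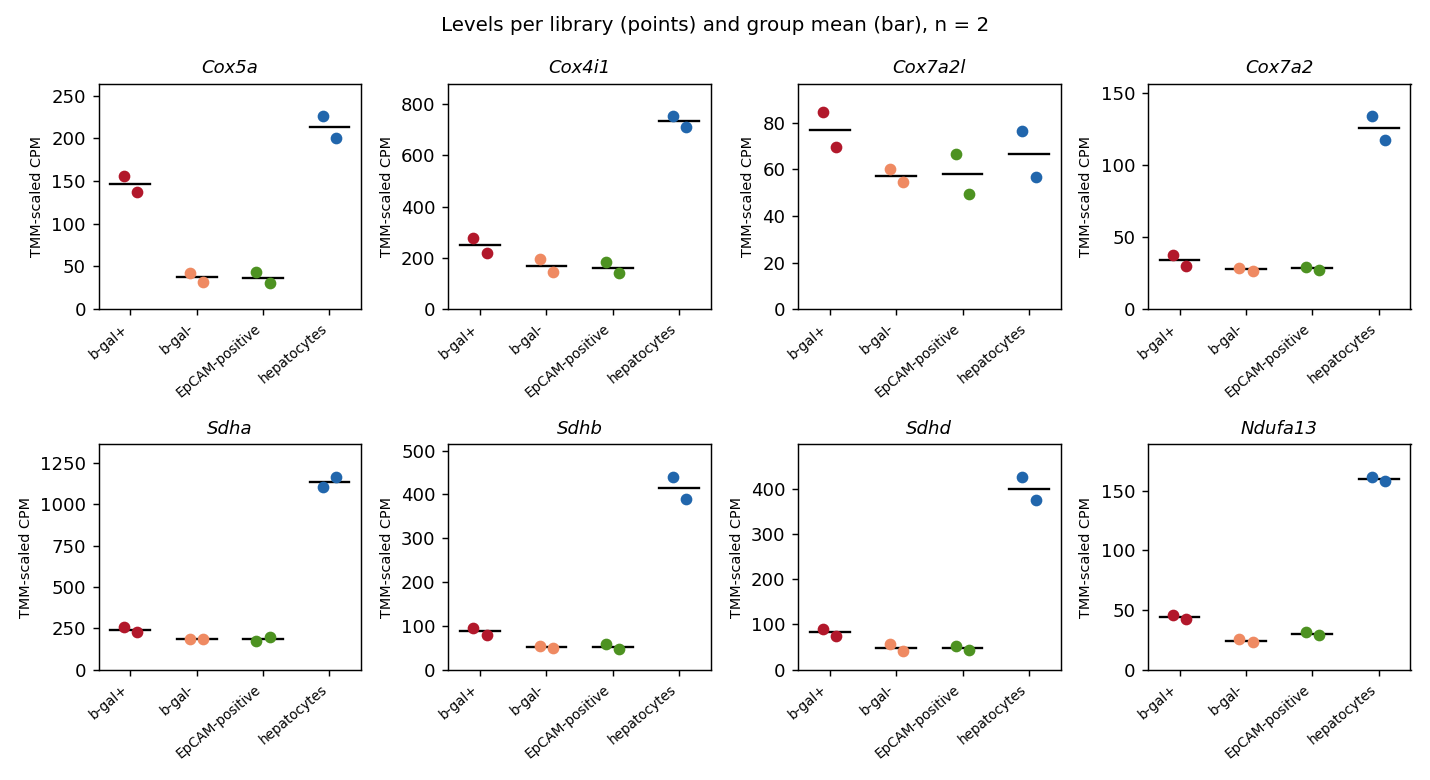
Points give the TMM-scaled CPM of each library and bars the group mean (n = 2) for 8 members, on linear axes that start at 0. In the Cox5a panel the b-gal+ points (155 and 138 CPM) lie near the hepatocyte points, whereas in the Sdha and Cox4i1 panels they lie near the b-gal- points; the hepatocyte points of Cox7a2l lie among those of the other groups.

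Cox7a2l, also called SCAF1 or COX7RP, links complexes III and IV in supercomplexes, and it did not pass in any comparison with hepatocytes. It stood at 84.8 and 69.5 CPM in b-gal+ cells, 60.2 and 54.4 CPM in b-gal- cells, 66.5 and 49.6 CPM in EpCAM-positive cells, and 76.7 and 56.8 CPM in hepatocytes, and hepatocytes overlapped each of the other groups. The log2 differences against hepatocytes were 0.22 ± 0.22 in b-gal+ cells, -0.20 ± 0.22 in b-gal- cells and -0.20 ± 0.22 for EpCAM-positive cells (adjusted p = 0.431, 0.442 and 0.451, limma). With library totals alone it was called higher in all 3 groups, and in b-gal- and EpCAM-positive cells that turned the sign (0.93 and 1.22). Its paralog Cox7a2, the subunit of the enzyme itself, stood at 37.4 and 30.1 CPM in b-gal+ cells, 28.7 and 26.4 CPM in b-gal- cells, 29.2 and 27.2 CPM in EpCAM-positive cells, and 134 and 118 CPM in hepatocytes. Cox7a2l reads divided by Cox7a2 reads were 2.27 and 2.31 for b-gal+ cells, 2.10 and 2.06 for b-gal- cells, 2.28 and 1.82 for EpCAM-positive cells, and 0.572 and 0.483 for hepatocytes, with no overlap between hepatocytes and the rest.

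Of the isoform pairs of complex IV the general forms were the ones present. Cox6a1 stood at 77.0 and 63.8 CPM in b-gal+ cells, 64.7 and 63.4 CPM in b-gal- cells, 64.4 and 58.5 CPM in EpCAM-positive cells, and 284 CPM in each hepatocyte library, and it was 4.03-fold lower in b-gal+ and 4.41-fold lower in b-gal- cells than in hepatocytes. Cox6b1 stood at 88.7 and 75.5 CPM in b-gal+ cells, 58.0 and 47.9 CPM in b-gal- cells, 60.7 and 47.9 CPM in EpCAM-positive cells, and 275 and 213 CPM in hepatocytes. Cox8a stood at 61.3 and 43.3 CPM in b-gal+ cells, 36.8 and 30.5 CPM in b-gal- cells, 43.0 and 30.8 CPM in EpCAM-positive cells, and 145 and 139.7 CPM in hepatocytes. All of them fell in each group against hepatocytes, and none was called between b-gal+ and b-gal- cells.

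Muscle, testis and hypoxia forms had few reads in most libraries. The heart and muscle form Cox6a2 had 3 and 6 reads for b-gal+ cells, 12 and 13 for b-gal- cells, 67 and 3 for EpCAM-positive cells, and 0 in both hepatocyte libraries, so that EpCAM-positive replicate 1 stood apart. The muscle form Cox7a1 had 17 and 20 reads for b-gal+ cells, 15 and 11 for b-gal- cells, 40 and 151 for EpCAM-positive cells, and 21 and 19 for hepatocytes, here with EpCAM-positive replicate 2 apart. Neither was called by limma in any comparison, while edgeR and DESeq2 called Cox6a2 higher in EpCAM-positive cells than in hepatocytes. The testis form Cox6b2 had 26 and 34 reads for b-gal+ cells, 26 and 12 for b-gal- cells, 37 and 60 for EpCAM-positive cells, and 6 and 7 for hepatocytes; it was 2.11-fold higher in EpCAM-positive cells than in hepatocytes (adjusted p = 0.0302, limma), a call lost under the stricter filter on low counts, with the 2 groups alone, and without EpCAM-positive replicate 2, either b-gal+ library or either hepatocyte library (adjusted p of 0.0528 to 0.130 without a library).

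The lung form Cox4i2 had 9 reads or fewer and the muscle form Cox8b 2 or fewer per library, and Cox7b2 and Cox8c were at 0 in all 8. A count of 0 allows up to 3 reads, or 0.122 to 0.177 CPM before TMM scaling. Ndufa4l2, a hypoxia-induced paralog of Ndufa4, stood at 0.581 and 0.322 CPM in b-gal+ cells, 0.806 and 0.538 CPM in b-gal- cells, 0.760 and 0.112 CPM in EpCAM-positive cells, and 2.14 and 2.00 CPM in hepatocytes, whereas Ndufa4 stood at 52.4 and 49.2 CPM in b-gal+ cells, 45.7 and 45.9 CPM in b-gal- cells, 49.6 and 63.3 CPM in EpCAM-positive cells, and 344 and 316 CPM in hepatocytes.

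In complex V 13 of 15 genes fell against hepatocytes in b-gal+, b-gal- and EpCAM-positive cells (against 29.6%, 29.7% and 29.1% of all genes). The medians were -2.06 in b-gal+ cells, -2.48 in b-gal- cells and -2.30 for EpCAM-positive cells. With the deposited scaling 11, 12 and 11 were called lower (against 16.0%, 15.1% and 11.8%). Atp5b, the catalytic beta subunit, had the highest level per length of complex V in each group, at a mean of 222 RPKM in b-gal+ cells, 195 in b-gal- cells, 220.2 in EpCAM-positive cells and 1429.6 in hepatocytes. It stood at 502 and 349 CPM in b-gal+ cells, 417 and 329.8 CPM in b-gal- cells, 446 and 398 CPM in EpCAM-positive cells, and 2823 and 2655 CPM in hepatocytes. It was 6.54-fold lower in b-gal+ cells (adjusted p = 0.000162, limma), 7.38-fold lower in b-gal- cells (0.000115) and 6.49-fold lower in EpCAM-positive cells (0.000195). Atp5h, the peripheral stalk subunit d, showed the smallest called fall, with 23.9 and 19.5 CPM in b-gal+ cells, 22.7 and 22.6 CPM in b-gal- cells, 23.0 and 19.1 CPM in EpCAM-positive cells, and 69.4 and 57.4 CPM in hepatocytes. Its level is uncertain, since 36.9% of its 50-base words occur in 18 other genes.

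Subunit c, which forms the rotor ring, is encoded by 3 genes with the same mature protein. Nearly all of its reads came from Atp5g3, at 119.7 and 99.2 CPM in b-gal+ cells, 87.5 and 79.6 CPM in b-gal- cells, 93.0 and 91.0 CPM in EpCAM-positive cells, and 779.8 and 586 CPM in hepatocytes. It was 6.18-fold lower in b-gal+ cells, 8.06-fold lower in b-gal- cells and 7.32-fold lower for EpCAM-positive cells than in hepatocytes (adjusted p = 3.79e-05, 2.12e-05 and 3.39e-05, limma). Atp5g1 stood at 0.805 and 0.603 CPM in b-gal+ cells, 0.922 and 0.196 CPM in b-gal- cells, 0.760 and 0.748 CPM in EpCAM-positive cells, and 6.13 and 5.27 CPM in hepatocytes. Atp5g2 had 18 reads or fewer in every library and was not called in any comparison. Of the 50-base words of Atp5g2 38.3% occur in 3 other genes, and 11.1% of those of Atp5g1 in 366 others, so the levels of both are uncertain. No complex V gene was called between b-gal+ and b-gal- cells.

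Of the names outside the core subunits, Atp5sl (also called Dmac2, a factor of complex I assembly) stood at 25.7 and 29.3 CPM in b-gal+ cells, 20.9 and 20.4 CPM in b-gal- cells, 24.8 and 28.0 CPM in EpCAM-positive cells, and 51.7 and 63.4 CPM in hepatocytes. It was 2.07-fold lower in b-gal+, 2.73-fold lower in b-gal- and 2.15-fold lower in EpCAM-positive cells (adjusted p = 0.0016, 0.000324 and 0.00131, limma), and in EpCAM-positive cells the sign turned with library totals alone (0.30) and with the deposited scaling (0.25). Atp5s fell in b-gal+ and EpCAM-positive cells against hepatocytes, by 1.41 and 0.99 on the log2 scale, and in b-gal- cells it did not pass (log2 -0.85, adjusted p = 0.0546); with library totals alone and with the deposited scaling it was called in none of them, and the sign turned in EpCAM-positive cells (0.33 and 0.28) and in b-gal- cells (0.21 and 0.27).

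Several abundant subunits had almost no reads. Ndufs5 was at 0 in all 8 libraries, Cox7c had 15 to 24 reads per library and Atp5l 3 to 11. Annotated copies hold 21.7% of the 50-base words of Ndufs5, 23.0% of those of Cox7c and 84.8% of those of Atp5l. Over all members, 16 of 91 had more than 20% of their words in other genes, and 44 had none. Whether the counting dropped reads that map to several places was not tested, and the levels of such members are uncertain; Ndufb4 (37.0% of words) stood at 2.64 and 2.86 CPM in b-gal+ cells, 3.42 and 3.13 CPM in b-gal- cells, 3.01 and 1.98 CPM in EpCAM-positive cells, and 12.6 and 10.1 CPM in hepatocytes.

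Gene length was looked at because many subunits are short. Against hepatocytes, tested genes under 1 kb that are no members had a median log2 difference of 0.04 in b-gal+ cells, -0.13 in b-gal- cells and -0.04 for EpCAM-positive cells (673 genes), where the 40 members under 1 kb had -1.57, -2.001 and -1.94. Between b-gal+ and b-gal- cells the same medians were 0.28 for the members and 0.17 for the other short genes.

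With TMM, other genes of mitochondrial respiration were lower outside hepatocytes as well. Of all genes 29.6%, 29.7% and 29.1% were lower in b-gal+, b-gal- and EpCAM-positive cells, and 29.5%, 33.5% and 33.5% higher. Of 14 tested genes of cytochrome c and coenzyme Q synthesis 12 fell in each of the 3 groups, and of 38 assembly factors of complexes II to V 33 fell in b-gal+ cells, 38 in b-gal- cells and 38 for EpCAM-positive cells. In the tricarboxylic acid cycle 17, 18 and 18 of 18 fell in the same order, and of 75 mitochondrial ribosomal proteins 68, 71 and 73 fell, while 1 rose in b-gal+ cells. None of the genes of the first 3 lists rose in these comparisons. With library totals alone the counts of the 4 lists were smaller and mixed: for b-gal+ cells against hepatocytes 8 of 14, 8 of 38, 9 of 18 and 28 of 75 fell and 2, 3, 1 and 3 rose. Of all genes 16.4% were then lower and 50.9% higher, so the 8 of 38 assembly factors lay near the share of all genes. For b-gal- cells 7 of 14, 12 of 38, 11 of 18 and 29 of 75 fell (against 15.5%) and 1, 1, 0 and 4 rose (against 57.9%). For EpCAM-positive cells 5 of 14, 5 of 38, 8 of 18 and 15 of 75 fell (against 11.5%) and 3, 4, 2 and 7 rose (against 67.1%). There the 5 of 38 assembly factors also lay near the share of all genes. Of 78 cytosolic ribosomal proteins 15 were higher and 3 lower in b-gal+ cells, 8 and 4 for b-gal- cells, and 9 and 3 for EpCAM-positive cells; their median in b-gal- cells, 0.10, lay below that of all genes. The shares called higher were 19.2% in b-gal+ cells, 10.3% for b-gal- cells and 11.5% for EpCAM-positive cells, below the 29.5%, 33.5% and 33.5% of all genes. Those called lower were 3.85%, 5.13% and 3.85%, below the 29.6%, 29.7% and 29.1% of all genes. With library totals alone 59, 50 and 68 of the 78 were higher (against 50.9%, 57.9% and 67.1% of all genes).

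**Figure D5:**
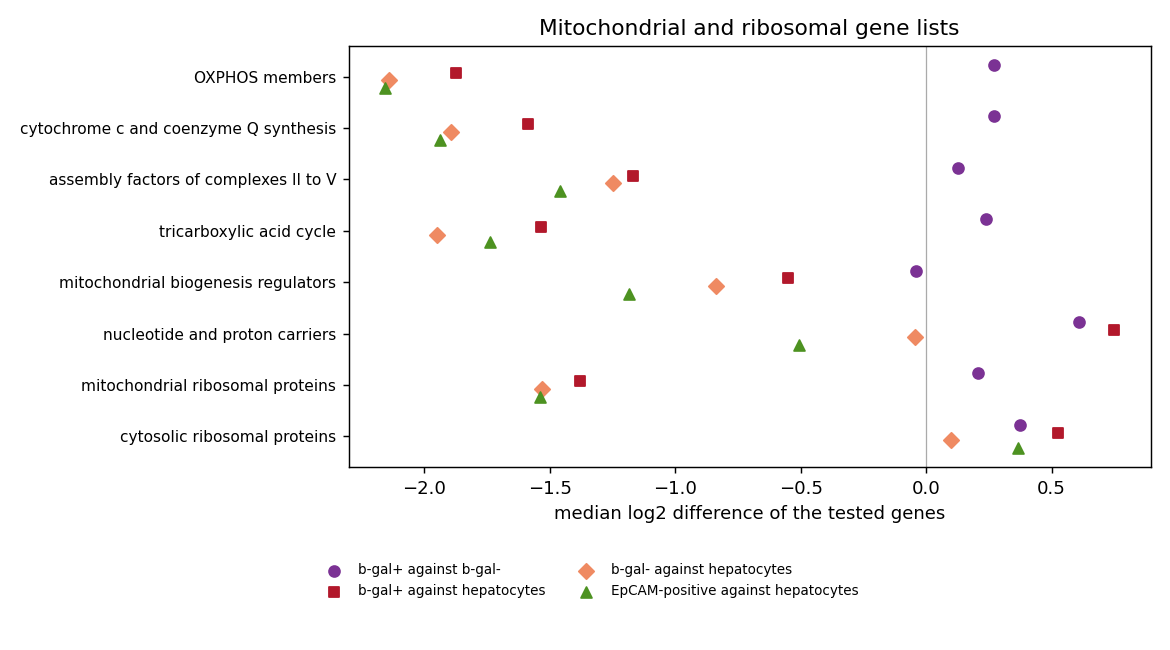
Points give the median log2 difference of the tested genes of each list, on the log2(CPM + 0.5) scale, with 1 symbol per comparison. The oxidative phosphorylation members lie lowest, at -1.87, -2.14 and -2.16 against hepatocytes, and cytosolic ribosomal proteins lie above 0 in each comparison.

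Between b-gal+ and b-gal- cells, where 10.3% of all genes were called higher and 13.0% lower, the calls in these lists were all higher in b-gal+ cells. They were 2 of 14 for cytochrome c and coenzyme Q (14.3%), 2 of 18 in the tricarboxylic acid cycle (11.1%), 2 of 38 assembly factors (5.26%), 3 of 75 mitochondrial (4.0%) and 2 of 78 cytosolic ribosomal proteins (2.56%). Idh2, the mitochondrial NADP-dependent isocitrate dehydrogenase, stood at 101 and 78.7 CPM in b-gal+ cells, against 48.2 and 35.4 CPM in b-gal- cells (log2 1.10, adjusted p = 0.0463, limma). Coa5, a factor of complex IV assembly, stood at 157 and 151 CPM in b-gal+ cells, against 83.8 and 71.0 CPM in b-gal- cells (log2 0.99, adjusted p = 0.0454). Mrpl3, of the large mitochondrial ribosomal subunit, stood at 58.5 and 60.1 CPM in b-gal+ cells, against 29.2 and 28.2 CPM in b-gal- cells (log2 1.03, adjusted p = 0.00507), and it was the mitochondrial ribosomal protein that rose against hepatocytes, at 40.6 and 35.4 CPM there.

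The largest fall among the cofactor genes was that of Adck3 (also called Coq8a), a kinase-like protein of coenzyme Q synthesis. It stood at 22.1 and 14.9 CPM in b-gal+ cells, 14.8 and 12.6 CPM in b-gal- cells, 25.4 and 33.98 CPM in EpCAM-positive cells, and 1214 and 1586 CPM in hepatocytes, and was 74.4-fold, 98.0-fold and 46.5-fold lower in the same order (adjusted p = 8.3e-06, 8.05e-06 and 1.18e-05, limma). Suclg2, the GTP-specific beta subunit of succinate-CoA ligase, led the tricarboxylic acid cycle in the same way, at 18.7 and 15.8 CPM in b-gal+ cells, 18.3 and 16.8 CPM in b-gal- cells, 15.8 and 27.0 CPM in EpCAM-positive cells, and 298 and 217 CPM in hepatocytes.

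Regulators of mitochondrial biogenesis moved in both directions, with 4 of 16 called higher in each group (against 29.5%, 33.5% and 33.5% of all genes). Of the 16 tested, 4 rose and 8 fell in b-gal+ cells, 4 and 8 for b-gal- cells, and 4 and 9 for EpCAM-positive cells against hepatocytes. Of all genes 29.6%, 29.7% and 29.1% were lower in the same order. The regulators' medians of -0.55, -0.84 and -1.18 turned to 0.28, 0.26 and 0.23 with library totals alone. Ppara, a nuclear receptor that drives fatty acid oxidation, fell most, at 0.537 and 0.563 CPM in b-gal+ cells, 0.691 and 0.342 CPM in b-gal- cells, 1.003 and 8.0008 CPM in EpCAM-positive cells, and 309 and 325 CPM in hepatocytes. Pprc1, a coactivator related to PGC-1, rose most, at 39.7 and 42.4 CPM in b-gal+ cells, 37.4 and 36.9 CPM in b-gal- cells, 36.3 and 31.7 CPM in EpCAM-positive cells, and 12.4 and 21.0 CPM in hepatocytes (adjusted p = 0.00324, 0.00509 and 0.00895, limma). Esrra, an orphan receptor that acts on respiratory genes, was higher in b-gal+ than in b-gal- cells, at 62.2 and 59.6 CPM against 36.1 and 29.7 CPM (log2 0.89, adjusted p = 0.00759), and Gabpb1, the partner of GABPA, was lower, at 21.0 and 24.1 CPM in b-gal+ cells against 35.6 and 46.1 CPM in b-gal- cells (log2 -0.84, adjusted p = 0.0177).

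The listed carriers of nucleotides and protons, with the outer-membrane channel Vdac1 among them, also moved in both directions. Against hepatocytes 6 of 12 were higher and 5 lower in b-gal+ cells, and 3 higher and 5 lower in b-gal- and in EpCAM-positive cells. Of all genes 29.5%, 33.5% and 33.5% were higher and 29.6%, 29.7% and 29.1% lower in b-gal+, b-gal- and EpCAM-positive cells. With library totals alone 8, 4 and 6 were higher (against 50.9%, 57.9% and 67.1% of all genes). Then 1, 2 and 2 were lower (against 16.4%, 15.5% and 11.5%). Vdac1 stood at 126 and 103 CPM in b-gal+ cells, against 322 and 307 CPM in hepatocytes (log2 -1.47, adjusted p = 0.00024, limma). Ucp2, a carrier of the uncoupling protein family, stood at 1355 and 1162 CPM in b-gal+ cells, against 71.2 and 27.9 CPM in hepatocytes, 27.8-fold higher (adjusted p = 0.000497, limma); its difference from b-gal- cells did not pass (log2 1.62, adjusted p = 0.11). The adenine nucleotide translocators went opposite ways. Slc25a4, the heart and muscle form, stood at 106 and 95.5 CPM in b-gal- cells and 93.4 and 74.4 CPM in EpCAM-positive cells, against 7.90 and 5.83 CPM in hepatocytes, 13.9-fold and 11.5-fold higher (adjusted p = 2.95e-05 and 5.28e-05). Slc25a5, the form of dividing cells, stood at 70.1 and 54.7 CPM in b-gal- cells and 80.5 and 42.6 CPM in EpCAM-positive cells, against 310.0 and 276 CPM in hepatocytes, 4.69-fold and 4.96-fold lower (adjusted p = 0.000751 and 0.000726). Slc25a5 was also 2.29-fold higher in b-gal+ cells (163 and 125 CPM) than in b-gal- cells (adjusted p = 0.0335).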

How the data were processed

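RNA-seq was read from 8 libraries, 2 for each of 4 groups. For hepatocytes replicate 1 the authors deposited whole read counts per gene; the other 7 deposited files hold other values, which are counts multiplied by 1 factor per library (1.08 to 1.54). Division by that factor, found from the smallest step between values, gave back whole reads for 100% of the values within 0.01 reads. HTSeq and the builds GRCm38.p4 and mm10 are named in the submitters' processing notes (aligner: not given in the sources used here). Left out were the 14 rows with a number in place of a gene symbol (0.0514% to 0.182% of reads).

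Low counts were filtered with edgeR's filterByExpr at its default settings. Reads were scaled by TMM (edgeR 4.0.16) and tested with limma 3.58.1 (R 4.3.3) with trend on log2(CPM + 0.5), all 8 libraries in 1 fit, two-sided, Benjamini-Hochberg over 14404 genes; a fold change is on that scale and understates the change of low genes. edgeR's quasi-likelihood test and DESeq2 1.42.0 on the recovered reads, other scalings, filters and pseudocounts, each library left out, the 2 groups alone and a replicate block were alternatives. The count test called 1239 higher and 1736 lower genes between b-gal+ and b-gal- cells, where limma called 1490 and 1867. The scripts were tested on simulated data. Genes per length use GENCODE M21 exons on GRCm38.

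Named with values were the called members with the highest and lowest log2 difference per class and comparison (mean of at least 10 CPM), the highest per length in each class, all complex II subunits, the tissue isoforms, and at most 2 called genes of each pathway list and comparison. Ndufc2, Ndufaf5, Ndufaf6, Ndufaf7, Ndufb4, Ndufs5, Cox7c, Atp5l, Atp5s and Uqcrc1 were named after their values were seen. Members and lists were chosen with earlier results of these data known. A limit from a count of 0 covers counting error only.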

Additional observations from a re-analysis of the deposited data

How the results depend on the processing

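Of 2483 values of 33 tested named genes under 19 alternatives, 2344 stayed on their side of the threshold, 2317 of them with the same direction and 27 with another sign and no call; 81 lost a call, 46 gained one, and 12 changed sign with a call on one side. The count of members higher in b-gal+ than in b-gal- cells, 6 in limma, was 16 with DESeq2, 3 with library totals alone, 3 with the deposited scaling, 10 with the 2 groups alone and 1 to 7 when each library was left out, and 0 to 1 were then lower. Of all genes 16.0%, 8.08% and 7.71% were higher with DESeq2, library totals and the deposited scaling. With the 2 groups alone 2036 genes were higher. The replicate block gave 19 higher members (21.8%, against 13.2% of all genes), where the fit without it gave 6.90% against 10.3%. Same-numbered libraries had deviations that correlated at 0.177 to 0.494 in all 6 pairs of groups, a hint from the data that they vary together; the labels do not say what the number marks. For b-gal+ cells against hepatocytes the count of higher members, 0, was 2 with library totals, 2 with the deposited scaling, 1 with the 2 groups alone and 0 to 1 with a library left out. For b-gal- cells, also 0, it was 1 with DESeq2, 3 with library totals, 3 with the deposited scaling, 1 at a pseudocount of 0.1, 1 with the 2 groups alone and 0 to 1 with a library left out. For EpCAM-positive cells, 1, it was 2 with edgeR, 2 with DESeq2, 4 with library totals, 4 with the deposited scaling, 0 under the stricter filter of 50 reads, 2 at a pseudocount of 0.1, 0 with the 2 groups alone and 0 to 2 with a library left out. The counts of lower members with a library left out were 76 to 80 in b-gal+ cells, 76 to 80 in b-gal- cells and 76 to 79 in EpCAM-positive cells. With library totals and the deposited scaling the log2 difference against hepatocytes turned to 0.93 and 0.99 for Cox7a2l and 0.19 and 0.26 for Ndufaf3 in b-gal- cells, and to 1.22 and 1.16 for Cox7a2l, 0.42 and 0.37 for Ndufaf3, 0.30 and 0.25 for Atp5sl and 0.11 and 0.062 for Ndufb3 in EpCAM-positive cells; these scalings leave out the TMM factors, and no other cause was tested. Members with under about 3 reads per library are limited by depth.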
